A study of Mus musculus with 6 samples.

Results

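The genes of the contractile actin cytoskeleton and of the focal adhesions that anchor it were compared between CTL and TGF-β1–treated renal tubule epithelial cells (RTECs). The group holds 44 genes of the 46517 in the count files. They were listed by symbol for their function, with earlier results of these data known, and were sorted by role into 10 groups, from actins to the transcription factor Srf. RTECs were grown from collagenase-digested kidneys of wild type FvB mice, aged 4 to 6 weeks by the sample labels (the study's methods give a slightly younger range), in medium with 10% serum and 20 ng/ml EGF. At 70% confluence all 6 cultures went into serum-free medium for 24 h. The 3 TGF-β1 cultures then received 50 ng/ml TGF-β1 for 24 h, and the 3 CTL cultures did not. The labels do not say whether the cultures came from separate mice, so the p-values measure only the spread between these cultures, which may be technical.

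Actin filaments are made of cytoplasmic β- and γ-actin in most cells and of further isoforms in muscle. In stress fibres the filaments are crosslinked by α-actinin, coated by tropomyosin, calponin and transgelin, and pulled by myosin II, and at focal adhesions talin, vinculin and zyxin couple them to integrins. Many of these genes carry a CArG box, the binding motif of serum response factor (SRF), whose cofactors of the MRTF family are held in the cytoplasm by unpolymerized actin. TGF-β1 is known for driving α-smooth muscle actin and stress fibres in fibroblasts and in cultured epithelial cells.

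The CArG box was looked for first, since it is the sequence feature most often tied to these genes. A promoter window of RefSeq (GRCm38.p6), reaching from 250 bases before a start site to 50 bases after it, was at hand for 36 of the 44 genes, not including Actb, Actg2, Csrp2, Myh11, Parva, Pxn, Synpo and Tagln. The motif reads the same on both strands, so 1 search covered both. It was present in 9 of the 36 genes (25%), including Actc1, which was not tested between groups. It was present in 162 of 10959 tested genes with a window outside the 44 (1.48%) and in 1.63% of all 32851 windows. Since many of the listed genes are known for the motif, the higher share reflects which genes were listed and says nothing about TGF-β1. The 9 genes were Acta1, Actc1, Actg1, Cnn2, Fhl1, Fhl2, Myl9, Srf and Vcl. A match describes the letters in the window and does not show binding, and no match says only that the letters are not in this window.

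Of the 15 genes that passed the test between groups, Actg1 and Srf had a match. The 203 and 237 bases of their windows that lie upstream of the annotated genes are printed 5′ to 3′ because they hold the SRF motif in a cytoplasmic actin gene and in the gene of SRF itself. Capitals mark the CArG boxes, 1 in Actg1 (minus strand, chr11:120348543-120348745) and 2 in Srf (minus strand, chr17:46556176-46556412).
Actg1: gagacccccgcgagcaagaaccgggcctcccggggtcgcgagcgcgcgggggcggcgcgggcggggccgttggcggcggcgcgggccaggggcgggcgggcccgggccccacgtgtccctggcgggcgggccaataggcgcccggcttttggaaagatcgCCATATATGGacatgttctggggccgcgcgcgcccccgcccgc
Srf: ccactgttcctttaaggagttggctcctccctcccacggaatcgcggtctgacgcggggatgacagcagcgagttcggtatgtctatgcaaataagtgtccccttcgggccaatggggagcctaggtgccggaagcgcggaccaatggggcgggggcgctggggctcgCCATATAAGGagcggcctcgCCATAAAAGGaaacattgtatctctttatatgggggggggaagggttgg
The first base of the Actg1 box lay 90 bases before the RefSeq start site, and those of the Srf boxes lay 82 and 62 bases before it. The other matches were placed from 227 bases (Vcl) to 31 bases (Fhl2) before the start site, and their letters differed within the A and T run or not at all.
Acta1: CCAAATATGG
Actc1: CCAAATAAGG
Cnn2: CCTTATAAGG
Myl9: CCTAATAAGG
Vcl: CCTTATAAGG
Cnn2 and Vcl held the same 10 letters. Fhl2 had 1 match at each of 2 start sites and Fhl1 had 1.

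**Figure D1:**
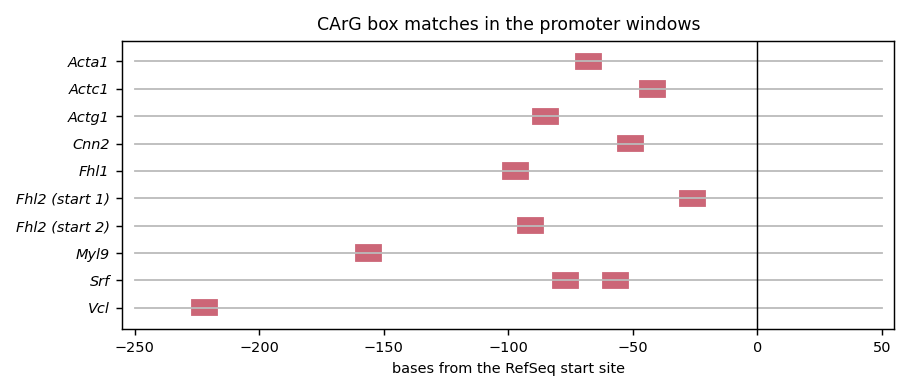
Position of each CArG box match (red) along the promoter windows of the 9 genes that had one, in bases from the RefSeq start site (0). Fhl2 has 2 start sites and Srf has 2 boxes in 1 window. The matches lie between 227 and 31 bases before the start site, and none lies after it.

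Gene counts summed to between 28313080 and 34183497 per library. 3 counts, the floor used here, equal 0.0878 to 0.106 CPM (counts relative to the library's total), and this floor covers counting error only, since the reads carried no molecular identifiers. Counts were scaled with TMM factors to a common library size of 31685910 and are called normalized counts. Groups were compared with edgeR's quasi-likelihood test, two-sided, and p-values were adjusted over the 15862 genes tested. 43 of the 44 genes were tested. Actc1, the cardiac actin, had 0 to 2 counts per library and was left out by the filter on low counts.

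With TGF-β1, 12 of the 43 genes were higher and 3 were lower at an adjusted p-value under 0.05, against 5% and 6.69% of all genes tested. The 12 were Actb, Actg1, Actn1, Tagln2, Cnn3, Myh9, Tpm1, Tpm4, Pdlim7, Csrp1, Csrp2 and Srf, and the 3 were Mylk, Des and Smtnl2. The median log2 fold change of the 43 genes was 0.40, and that of all genes tested was −0.00. For a further fit the cultures were paired by the replicate numbers of their labels, though the study's methods state no pairing. With the replicate number as a block, 29 of the 43 were higher and 5 were lower, against 15.1% and 19.1% of all genes tested. DESeq2 called 20 higher and 5 lower, against 7.57% and 9.59% of all genes. In 20 genes every TGF-β1 culture was above every CTL culture, and in 6 every TGF-β1 culture was below, against 17.2% and 18% of all genes tested. Within same-numbered pairs, 34 of the 43 genes were higher in all 3 pairs and 7 were lower in all 3, and Fhl1 and Smtn were mixed. Of all 15862 genes tested, 4819 were higher in all 3 pairs and 5178 were lower in all 3.

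**Figure D2:**
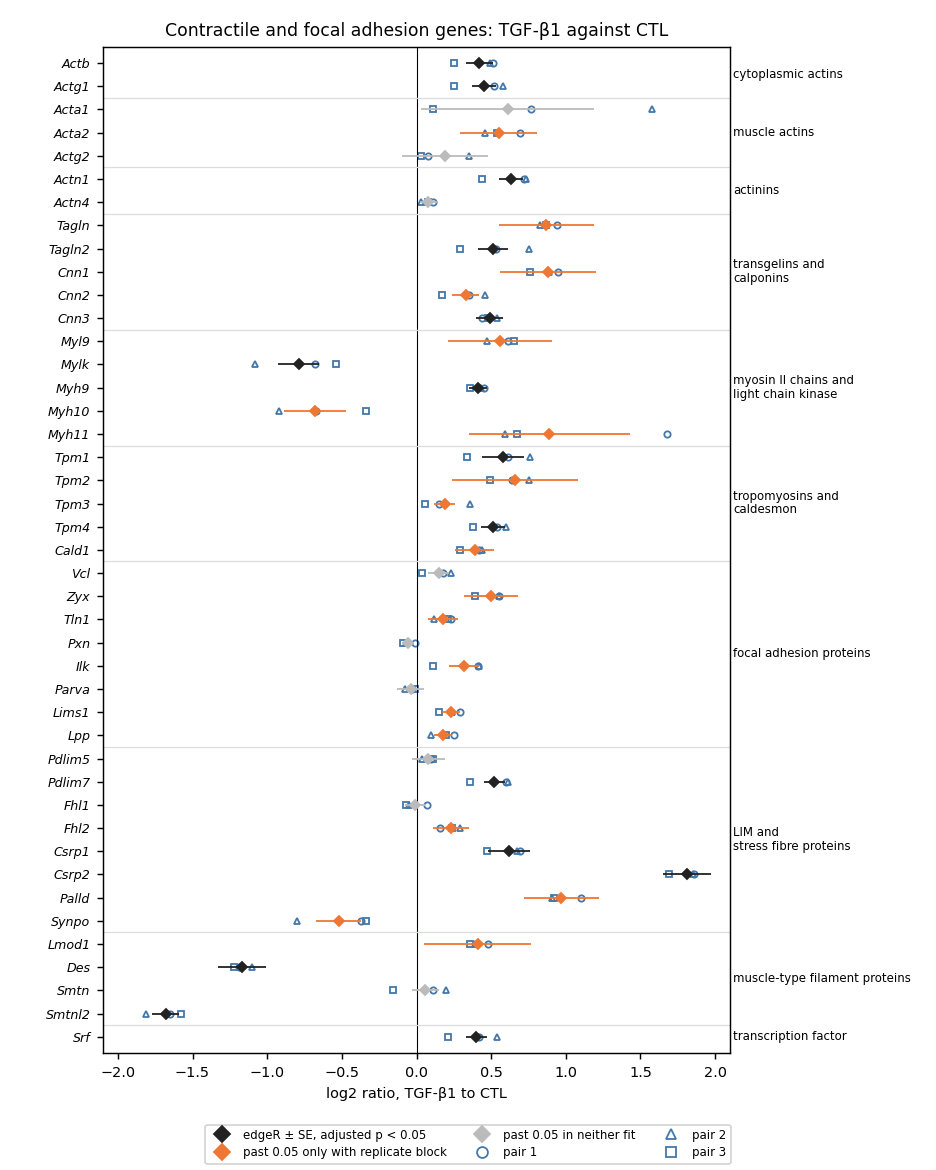
Log2 ratio of TGF-β1 to CTL for the 43 tested genes, sorted by role. Diamonds are edgeR estimates with standard error (n = 3 per group), black where the adjusted p-value was under 0.05, orange where it was only with the replicate block and grey where it was in neither, and open symbols are the ratios within same-numbered pairs. Csrp2 lies farthest to the right at 1.81 and Smtnl2 farthest to the left at −1.68.

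Most calls were lost when a replicate 1 culture was left out. Leaving out CTL replicate 1 ended 13 of the 15 calls, and leaving out TGF-β1 replicate 1 ended 12. Calls also became fewer over all genes tested, where edgeR called 793 higher and 1061 lower with all cultures. It called 109 and 186 without CTL replicate 1, and 128 and 193 without TGF-β1 replicate 1. Csrp2 and Smtnl2 kept an adjusted p-value under 0.05 in each of the 6 fits that left out 1 culture (at most 0.0354 and 0.0188 from edgeR). Without both replicate 1 cultures edgeR called 0 of the 43 genes, in a fit in which it called 0 genes of all, and 13 of the 43 and 1938 genes of all had an unadjusted p-value under 0.05. Without both replicate 2 cultures 17 were higher and 4 were lower, and without both replicate 3 cultures 3 were higher and 2 were lower. Over all genes, edgeR called 1084 higher and 1290 lower without both replicate 2 cultures. It called 95 higher and 190 lower without both replicate 3 cultures.

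Both cytoplasmic actins rose. Actb, the β-actin gene often used as a reference for expression (chromosome 5, 142903115 to 142906754), had 72013, 74219 and 73789 normalized counts in CTL replicates 1, 2 and 3. In TGF-β1 replicates 1, 2 and 3 it had 102635, 104064 and 87456. The groups did not overlap, and TGF-β1 replicate 3 was the nearest to CTL. TGF-β1 cultures were higher by 0.42 on the log2 scale (standard error (SE) 0.09, edgeR adjusted p = 0.0341), a 1.34-fold increase. Reads that aligned to several places had been left out of the deposited counts, so the levels of actin genes, which have close copies, are uncertain. Actg1, the γ-actin gene (chromosome 11, 120345690 to 120348542), had 22216, 21313 and 23877 in CTL and 31822, 31902 and 28305 in TGF-β1. Its groups did not overlap either (log2 fold change 0.45, SE 0.08, edgeR adjusted p = 0.0199).

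None of the 3 tested muscle actins passed edgeR's test, and 0 of them had an unadjusted p-value under 0.05 or an adjusted one under 0.05 from DESeq2 or limma-voom. Acta2, the α-smooth muscle actin of myofibroblasts and vessel walls (chromosome 19, 34241090 to 34255590), had 51489, 74654 and 42809 normalized counts in CTL. In TGF-β1 it had 83025, 102531 and 62091. TGF-β1 replicate 3 was below CTL replicate 2, so the groups overlapped, but replicate 2 was the highest and replicate 3 the lowest in both groups. In edgeR's fit TGF-β1 was higher by 0.55 on the log2 scale (SE 0.26, edgeR adjusted p = 0.234). The replicate block gave 0.56 (SE 0.06, edgeR adjusted p = 0.000379), and the log2 ratios within pairs were 0.69, 0.46 and 0.54.
Acta1, the skeletal muscle actin, had 360, 96.1 and 477 normalized counts in CTL and 616, 288 and 513 in TGF-β1 (edgeR adjusted p = 0.547, and 0.078 with the block). Here replicate 2 was the lowest in both groups. Actg2, the enteric smooth muscle actin, had 2429, 3402 and 2197 in CTL and 2569, 4327 and 2243 in TGF-β1 (edgeR adjusted p = 0.724, and 0.103 with the block).

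**Figure D3:**
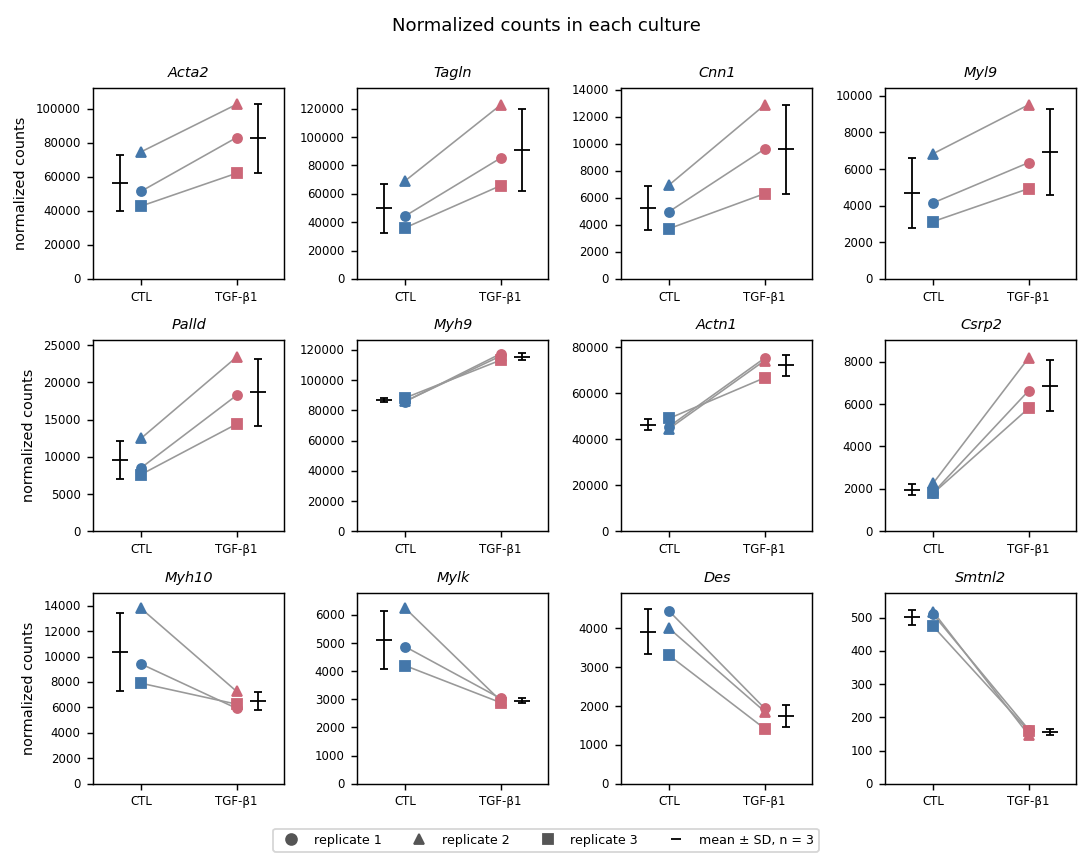
Normalized counts of 12 of the genes in each culture, on axes that start at 0, with lines joining same-numbered CTL (blue) and TGF-β1 (red) cultures and bars for the mean ± SD of 3 cultures. In Acta2, Tagln, Cnn1, Myl9, Palld and Csrp2 replicate 2 is the highest in both groups and all 3 lines go up. The groups of Palld, Csrp2, Myh9, Actn1, Myh10, Mylk, Des and Smtnl2 do not overlap.

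α-Actinin-1 and α-actinin-4 crosslink actin filaments. Actn1 had 45548, 44606 and 49071 normalized counts in CTL and 75267, 74196 and 66702 in TGF-β1, with no overlap. It rose 1.55-fold (log2 fold change 0.63, SE 0.08, edgeR adjusted p = 0.00889). Actn4 had 32614, 34141 and 32499 in CTL and 35283, 34975 and 34361 in TGF-β1. Its groups did not overlap, but the log2 fold change of 0.08 (SE 0.06) had an adjusted p-value of 0.436 from edgeR, and of 0.276 with the block.

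Transgelins and calponins bind along actin filaments, and Tagln and Cnn1 are markers of smooth muscle. 2 of the 5 genes rose (Tagln2 and Cnn3), and all 5 were higher with the replicate block and with DESeq2. Tagln (chromosome 9, 45929619 to 45936058) had 44367, 69125 and 36082 normalized counts in CTL and 85202, 122591 and 65772 in TGF-β1. TGF-β1 replicate 3 was below CTL replicate 2, and TGF-β1 was higher by 0.94, 0.83 and 0.87 on the log2 scale within pairs 1, 2 and 3. This came to 0.87 without the block (SE 0.32, edgeR adjusted p = 0.139, and 2.64e-05 with the block). 1349 of the 1988 exon bases of Tagln are shared with the genes Gm48529 and Pcsk7 on the other strand, so its level may be undercounted.
Cnn1 had 4987, 6959 and 3727 normalized counts in CTL and 9614, 12872 and 6313 in TGF-β1. It showed the same order of replicates as Tagln in both groups, and its groups overlapped (log2 fold change 0.88, SE 0.32, edgeR adjusted p = 0.141, and 1.70e-05 with the block).
Tagln2, the transgelin of non-muscle cells, had 19097, 16312 and 20817 in CTL and 27527, 27347 and 25471 in TGF-β1, and rose 1.43-fold (edgeR adjusted p = 0.0266). Cnn3 had 18867, 19583 and 16931 in CTL and 25526, 28391 and 23612 in TGF-β1, and rose 1.4-fold (edgeR adjusted p = 0.0263). Cnn2 did not overlap between groups, from 15016 to 15722 in CTL and from 17308 to 21684 in TGF-β1 (log2 fold change 0.33, edgeR adjusted p = 0.0644, and 0.00498 with the block).

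Non-muscle myosin II motors pull on actin filaments, and the heavy chain genes Myh9 and Myh10 had fold changes of opposite sign. Myh9, the heavy chain of myosin IIA (chromosome 15, 77760587 to 77842175), had 85847, 85983 and 88259 normalized counts in CTL and 117460, 115961 and 113262 in TGF-β1. It rose 1.33-fold with a narrow spread in both groups (log2 fold change 0.41, SE 0.06, edgeR adjusted p = 0.0144). Myh10, the heavy chain of myosin IIB (chromosome 11, 68691559 to 68816632), had 9418, 13783 and 7903 in CTL and 5929, 7267 and 6257 in TGF-β1. Every TGF-β1 culture was below every CTL culture, with a log2 difference of −0.68 (SE 0.21, edgeR adjusted p = 0.0971, and 0.00589 with the block). DESeq2 gave Myh10 an adjusted p-value of 0.0134.
The log2 ratio of Myh10 to Myh9 counts, which no library scaling can move, was −3.10 ± 0.43 in CTL (SD, n = 3), against −4.16 ± 0.16 with TGF-β1 (SD, n = 3). The difference was −1.06. A two-sided exact permutation test gave p = 0.1, and 3 cultures against 3 allow none smaller. Within pairs the differences were −1.12, −1.36 and −0.70. Shares per kb of exon were taken of Myh9, Myh10 and Myh11 together, without the further myosin II heavy chain Myh14. Myh9 was 87.1% ± 3.4 (SD, n = 3) in CTL, against 93.4% ± 0.685 with TGF-β1 (SD, n = 3). Myh10 was 12.8% and 6.48%.
Myh11, the smooth muscle heavy chain, was scarce, at 21.2, 64.4 and 24 normalized counts in CTL and 69.1, 97.4 and 38.5 in TGF-β1 (log2 fold change 0.89, SE 0.54, edgeR adjusted p = 0.335, and 0.018 with the block).

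Mylk encodes myosin light chain kinase, which phosphorylates the regulatory light chain, and it fell. Mylk (chromosome 16, 34745210 to 35002420) had 4871, 6241 and 4198 normalized counts in CTL and 3031, 2951 and 2883 in TGF-β1. The TGF-β1 cultures lay close together and below every CTL culture (log2 fold change −0.79, SE 0.14, edgeR adjusted p = 0.0239). Myl9, the regulatory light chain of smooth muscle and non-muscle myosin II, had 4154, 6839 and 3135 in CTL and 6350, 9506 and 4932 in TGF-β1. Its groups overlapped (log2 fold change 0.56, SE 0.35, edgeR adjusted p = 0.363, and 0.000106 with the block), with ratios of 0.61, 0.47 and 0.65 within pairs.

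Tropomyosins run along the groove of the actin filament, and caldesmon binds actin and tropomyosin. 2 of the 5 genes rose, Tpm1 and Tpm4, and all 5 were higher with the replicate block. Tpm1 had 93172, 104003 and 97554 normalized counts in CTL and 142253, 175595 and 123907 in TGF-β1 (log2 fold change 0.58, SE 0.14, adjusted p = 0.0459, and 0.0519 with library size only, from edgeR). Tpm4 had 21670, 23252 and 22396 in CTL and 31419, 35296 and 29188 in TGF-β1 (log2 fold change 0.51, SE 0.08, edgeR adjusted p = 0.0176). Neither gene overlapped between groups.
Tpm2, a muscle-type tropomyosin, had 4305, 7769 and 3811 in CTL and 6727, 13045 and 5362 in TGF-β1. Replicate 2 was far above the other cultures of both groups, and the adjusted p-value was 0.359, and 0.000129 with the block, from edgeR. Tpm3 ranged from 8621 to 9706 in CTL and from 10107 to 11051 in TGF-β1 (log2 fold change 0.19, edgeR adjusted p = 0.126, and 0.0467 with the block). Cald1 ranged from 56532 to 68443 and from 69167 to 92908 (log2 fold change 0.39, edgeR adjusted p = 0.118, and 0.00156 with the block).

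The 8 focal adhesion genes had a median log2 fold change of 0.18. With edgeR 0 of the 8 genes passed, 4 had an unadjusted p-value under 0.05, DESeq2 called 3 higher and limma-voom 0, and 5 were higher with the replicate block. Zyx, the adhesion and stress fibre protein zyxin (chromosome 6, 42349630 to 42360213), had the greatest log2 fold change of the 8, 0.50 (SE 0.18, edgeR adjusted p = 0.128, and 0.000306 with the block). It had 14721, 18811 and 14141 normalized counts in CTL and 21540, 27544 and 18523 in TGF-β1, and CTL replicate 2 overlapped with TGF-β1 replicate 3.
Ilk, Lims1 and Parva encode integrin-linked kinase and its partners PINCH-1 and α-parvin, which form 1 complex at adhesions. Ilk had 632, 610 and 620 normalized counts in CTL and 842, 819 and 670 in TGF-β1, with no overlap (log2 fold change 0.32, edgeR adjusted p = 0.0855, and 0.0148 with the block). 2461 of its 2744 exon bases are shared with Rrp8 and Taf10 on the other strand. Lims1 did not overlap between groups either, from 7150 to 7511 in CTL and from 7907 to 8849 in TGF-β1 (log2 fold change 0.23, edgeR adjusted p = 0.0643, and 0.00744 with the block).
Parva ranged from 10439 to 12365 in CTL and from 10333 to 11701 in TGF-β1. It had a log2 fold change of −0.04 (edgeR adjusted p = 0.802, and 0.521 with the block), and its sign turned without CTL replicate 2, when it was 0.04. Tln1, talin-1, which links integrins to actin, and Lpp, a zyxin relative, each had a log2 fold change of 0.18 (edgeR adjusted p = 0.272 and 0.105, and 0.0212 and 0.0226 with the block). Tln1 overlapped between groups, at 17330 to 21107 in CTL and 20037 to 23097 in TGF-β1, and Lpp did not, at 13141 to 14527 and 15232 to 15619. Vcl, vinculin, had 19631, 19264 and 19036 in CTL and 22257, 22573 and 19508 in TGF-β1 (log2 fold change 0.15, edgeR adjusted p = 0.231, and 0.0689 with the block). 2090 of the 8191 exon bases of Vcl are shared with Ap3m1 on the other strand. Pxn, the scaffold paxillin, was 8571 to 8659 in CTL and 8137 to 8519 in TGF-β1 (log2 fold change −0.06, edgeR adjusted p = 0.465, and 0.358 with the block).

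The LIM and stress fibre proteins held the strongest rise. Csrp2, a cysteine- and glycine-rich LIM protein that binds α-actinin (chromosome 10, 110919789 to 110939622), had 1824, 2270 and 1794 normalized counts in CTL and 6629, 8175 and 5804 in TGF-β1. The lowest TGF-β1 culture was above the highest CTL culture, and the rise was 3.5-fold (log2 fold change 1.81, SE 0.16, edgeR adjusted p = 0.00379). Ratios within pairs were 1.86, 1.85 and 1.69. Its relative Csrp1 had 18830, 21185 and 17452 in CTL and 30403, 33651 and 24191 in TGF-β1, and rose 1.54-fold (log2 fold change 0.62, SE 0.14, edgeR adjusted p = 0.0394).
Pdlim7, a PDZ and LIM protein of stress fibres, had 10333, 10425 and 10877 in CTL and 15612, 15900 and 13937 in TGF-β1 (log2 fold change 0.52, SE 0.07, edgeR adjusted p = 0.00948). Palld encodes palladin, a scaffold for α-actinin (chromosome 8, 61511433 to 61902690). It had 8523, 12486 and 7632 in CTL and 18256, 23391 and 14401 in TGF-β1, with no overlap. Its log2 fold change of 0.97 was the second greatest of the 43 genes, but its standard error was 0.25 and its adjusted p-value 0.0591 from edgeR. It was 1.53e-05 with the block, 0.000778 with DESeq2 and, under the threshold before rounding, 0.05 with limma-voom.
Synpo encodes synaptopodin, an actin-bundling protein best known from podocytes and found on chromosome 18. It had 14552, 17133 and 11827 in CTL and 11235, 9810 and 9329 in TGF-β1, with no overlap (log2 fold change −0.52, SE 0.15, edgeR adjusted p = 0.0739, and 0.00662 with the block). Fhl2, Pdlim5 and Fhl1 are further LIM proteins whose groups overlapped. Fhl2 had 3356 to 4270 normalized counts in CTL and 3970 to 5033 in TGF-β1, Pdlim5 had 13777 to 17617 and 14905 to 18133, and Fhl1 had 6587 to 6959 and 6284 to 7330. They had log2 fold changes of 0.23, 0.08 and −0.01. Their adjusted p-values were 0.285, 0.68 and 0.937 from edgeR, and with the block Fhl2 passed at 0.00526.

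The muscle-type filament proteins held the 2 strongest falls. Des encodes desmin, the intermediate filament of muscle cells and pericytes (chromosome 1, 75360329 to 75368579). It had 4446, 4001 and 3306 normalized counts in CTL and 1943, 1860 and 1420 in TGF-β1, and every TGF-β1 culture was below every CTL culture. It fell by 1.17 on the log2 scale (SE 0.16, edgeR adjusted p = 0.0113), with log2 ratios of −1.19, −1.10 and −1.22 within pairs. Without CTL replicate 1 its edgeR adjusted p-value was 0.0556.
Smtnl2, smoothelin-like 2 (chromosome 11, 72389164 to 72411713), had 510, 518 and 474 in CTL and 163, 147 and 159 in TGF-β1. Its 2 groups were narrow and far apart, at a fold of 0.312 (log2 fold change −1.68, SE 0.09, edgeR adjusted p = 0.00121). Smtn, smoothelin itself, ranged from 16653 to 17250 in CTL and from 15432 to 19183 in TGF-β1 (log2 fold change 0.06, edgeR adjusted p = 0.729, and 0.626 with the block), and with library size only the log2 fold change was −0.02. Lmod1, leiomodin-1, a smooth muscle actin nucleator, had 1049, 1687 and 825 in CTL and 1466, 2211 and 1059 in TGF-β1 (log2 fold change 0.41, edgeR adjusted p = 0.505, and 0.000591 with the block).

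Srf, the transcription factor of the CArG box (chromosome 17, 46548329 to 46556175), had 3011, 2937 and 3057 normalized counts in CTL and 4041, 4266 and 3543 in TGF-β1. It rose 1.32-fold with no overlap (log2 fold change 0.40, SE 0.07, edgeR adjusted p = 0.0247). Its cofactor gene Mrtfa had 2425, 2405 and 2302 in CTL and 3405, 3242 and 2950 in TGF-β1, and rose as well (log2 fold change 0.43, edgeR adjusted p = 0.0128). Mrtfb had 2900, 2768 and 2885 in CTL and 2741, 2256 and 2882 in TGF-β1 (log2 fold change −0.12, edgeR adjusted p = 0.463). Myocd, the cofactor of smooth and cardiac muscle, had 10.6, 25 and 9.81 normalized counts in CTL and 2.03, 16.6 and 3.76 in TGF-β1 (edgeR adjusted p = 0.43).
Among the 36 genes with a promoter window, a CArG box was in 2 of the 10 higher genes, 0 of the 3 lower genes and 7 of the 23 with no call, Actc1 among the latter. With the replicate block the counts were 5 of 25, 0 of 4 and 4 of 7.

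Compared within each library, the 44 genes together held a larger share of the counts in each TGF-β1 culture than in any CTL culture. They held 2.67, 2.99 and 2.59% of gene counts in CTL and 3.54, 3.93 and 3.12% in TGF-β1. The difference was 0.78 percentage points (two-sided exact permutation test, p = 0.1, again the smallest possible). The genes had been chosen with earlier results of these data known, so this p-value gives no separate support. Such a sum follows the genes with the most counts, and 8 of the 43 tested genes had a log2 fold change below 0. The balance between muscle and cytoplasmic actins had a log2 ratio of −0.73 ± 0.41 in CTL (SD, n = 3), against −0.61 ± 0.25 with TGF-β1 (SD, n = 3), and the difference of 0.12 was within the spread between cultures (two-sided exact permutation test, p = 0.8). Its sign turned to −0.06 without CTL replicate 3 and to −0.01 without TGF-β1 replicate 2. Tpm1 and Tpm2 against Tpm3 and Tpm4 gave log2 ratios of 1.71 ± 0.09 (SD, n = 3) and 1.86 ± 0.15 (SD, n = 3) (two-sided exact permutation test, p = 0.2). This ratio was higher with TGF-β1 in all 3 pairs, by 0.18, 0.21 and 0.06.

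**Figure D4:**
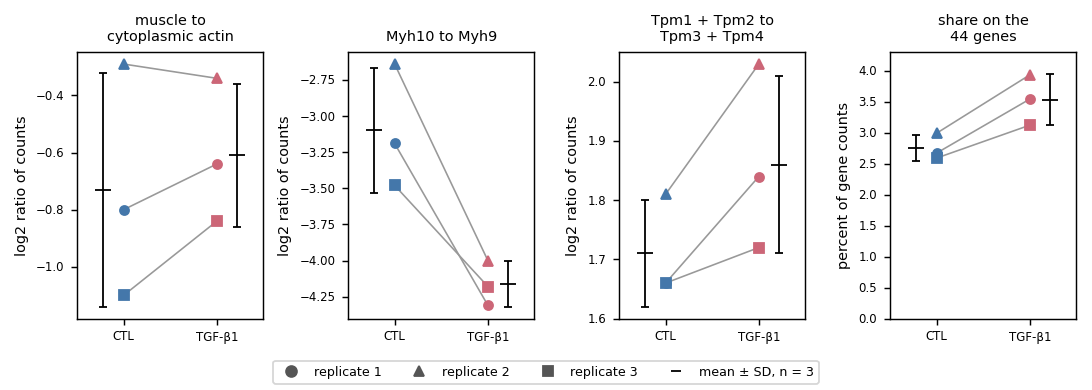
Values formed within each library, of which the first 3 need no scaling between libraries and the last is relative to the library's total. The first 3 panels give log2 ratios of counts and the last gives the percent of all gene counts on the 44 genes, with lines joining same-numbered cultures and bars for the mean ± SD of 3 cultures. The Myh10 to Myh9 ratio falls in each pair to between −4.31 and −4.00, and the ratio of muscle to cytoplasmic actin overlaps between groups.

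Levels of different genes were compared as RPKM, which are scaled by the exon length and the library size. The highest were Tagln at 792 ± 273 (SD, n = 3) RPKM in CTL and 1448 ± 458 in TGF-β1, Actb at 864 ± 13.8 and 1155 ± 108, and Acta2 at 809 ± 237 and 1186 ± 291. The ranges of these 3 over the cultures overlapped within CTL and within TGF-β1, and their order inside single cultures was not tested. Over all 6 cultures their mean RPKM ranked 9, 13 and 14 of the 46005 genes with an annotated length. Tpm1 followed at 478 ± 26.5 and 717 ± 128 RPKM, and Csrp1 at 309 ± 30.5 and 475 ± 77.6. At the low end, Myh11 ranked 15624 and Actc1 21651.
As a share of the 6 actin genes per kb, Actb made up 43.5% ± 4.67 of the CTL total (SD, n = 3), against 41.9% ± 2.98 with TGF-β1 (SD, n = 3). Acta2 made up 39.9% ± 6.81 (SD, n = 3) and 42.3% ± 3.97 (SD, n = 3). By these counts it was a major actin mRNA in the CTL cultures too, at 38.8, 47.2 and 33.8% in CTL replicates 1, 2 and 3. Reads with several alignments had been left out, so the shares of actin genes with close copies are uncertain. Tagln was 72.3% ± 8.66 (SD, n = 3) and 77.3% ± 4.78 (SD, n = 3) of the 2 transgelins. The share of Tagln was higher with TGF-β1 in all 3 pairs (70.9 to 76.4%, 81.6 to 82.4% and 64.5 to 73%), and those of Actb and Acta2 moved in different directions between pairs.

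**Figure D5:**
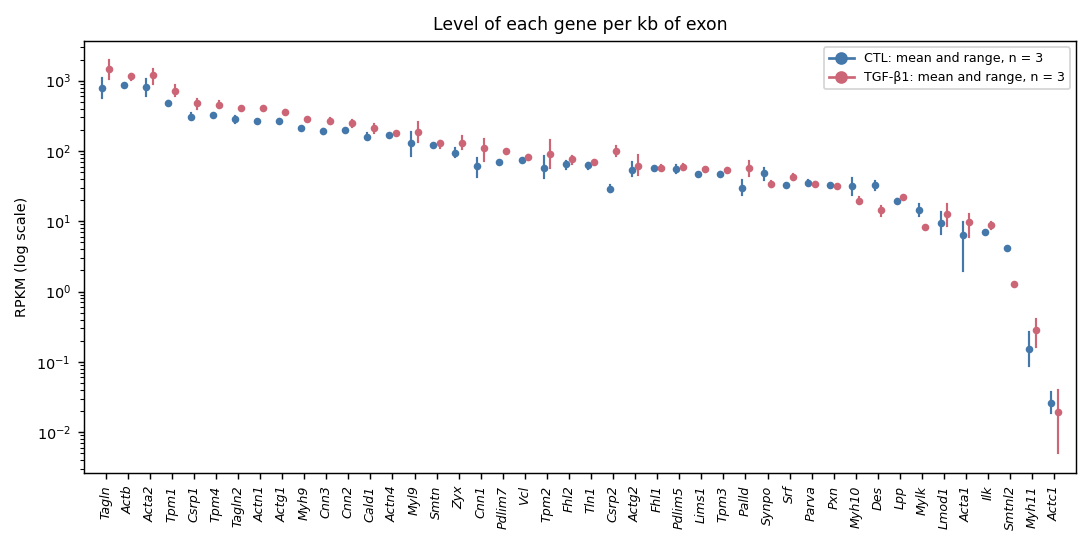
Mean and range of the RPKM of the 44 genes in CTL (blue) and TGF-β1 (red), on a log scale, ordered by the mean over all 6 cultures. Tagln, Actb and Acta2 are at the top and Actc1, whose 0 in TGF-β1 replicate 2 is drawn at the lower end of its line, is at the bottom.

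In many of the genes replicate 2 deviated to the same side in both groups. In 27 of the 43 genes replicate 2 was above the mean of replicates 1 and 3 in both groups, and in 2 (Acta1 and Pxn) it was below in both. Some of these deviations were small, at 0.07 in CTL and 0.01 in TGF-β1 for Actn4. The same count was not made over all genes. Over all 15862 genes tested, CTL and TGF-β1 replicate 2 deviated from their group means with a correlation of 0.684. On the log2 scale replicate 2 stood out by 1.49 in CTL and 0.91 in TGF-β1 for Myh11, by 0.94 and 1.12 for Tpm2, by 0.92 and 0.76 for Myl9 and by 0.79 and 0.71 for Tagln. It also stood out by 0.86 and 0.83 for Lmod1, by 0.69 and 0.72 for Cnn1 and by 0.56 and 0.85 for Actg2. For Acta2 it stood out by 0.67 and 0.51. Acta1 went the other way, with 96.1 normalized counts in CTL replicate 2 against 360 and 477. In TGF-β1 replicate 2 Acta1 had 288 against 616 and 513. Replicate 2 stood out little for Smtn, at −0.05 and 0.18, and for Des, at 0.06 and 0.16. For Mylk it stood out in CTL only, at 0.46 and −0.00.
Summed levels of cell type markers also differed in replicate 2. The summed level of 12 fibroblast markers was 2401 CPM in CTL replicate 2, against 963 and 1024 in CTL replicates 1 and 3, and 3119 in TGF-β1 replicate 2, against 1357 and 1020. Col1a1 was the main source (519 to 1760 CPM), while the fibroblast markers Dpt and Pi16 had at most 3 counts in every library. Thy1, of the same list, was lowest in replicate 2 of both groups, with 33.8, 13.5 and 63.2 normalized counts in CTL and 52.8, 14.5 and 70.4 in TGF-β1. Pdgfra was lowest in TGF-β1 replicate 2 (42.7, 20.7 and 70.4), and CTL replicates 1 and 2 were level (28, 27.9 and 48). The sum of the 14 tubule epithelium markers was lowest in replicate 2, with 1160 CPM in CTL replicate 2 against 2095 and 2773, and 908 in TGF-β1 replicate 2 against 1787 and 2196. Krt8, Krt18, Cdh1 and Epcam were lowest there in both groups, but in CTL Pax8 and Lrp2 were highest in replicate 2. The 15 smooth muscle and pericyte markers summed to 740 CPM in CTL replicate 2 against 611 and 571, and to 764 in TGF-β1 replicate 2 against 678 and 599, and Kcnj8 and Rergl had at most 3 counts in every library. Mcam, the main source of this sum (302 to 471 CPM), was lowest in CTL replicate 2. It had 11425, 9357 and 12300 normalized counts in CTL and 15277, 14725 and 13641 in TGF-β1. Pdgfrb was highest in replicate 2 of both groups, at 3215, 7194 and 2162 in CTL and 1619, 3635 and 1452 in TGF-β1. Whether cells other than RTECs set these levels was not tested, and in such bulk cultures more cells of a type and more RNA per cell cannot be told apart.
Between CTL and TGF-β1, edgeR called 5% of all genes tested higher and 6.69% lower, or 15.1% and 19.1% with the block. Of the 10 tested tubule epithelium markers it called 0 higher and 3 lower (30%), Cdh16, Pax8 and Lrp2. With the block 0 were higher and 7 lower (70%). Slc34a1, the phosphate transporter of the proximal tubule, and Aqp2, the water channel of the collecting duct, were too low to test. Of the 9 tested fibroblast markers 0 passed edgeR's test, 1 (Twist1) had an unadjusted p-value under 0.05, DESeq2 and limma-voom called that 1 lower, and 2 were higher and 2 lower with the block. Of the 11 tested smooth muscle and pericyte markers 0 passed edgeR's test, 2 were higher and 2 lower at an unadjusted p-value under 0.05, DESeq2 called 2 higher and 1 lower and limma-voom called 0. With the block 2 of these 11 were higher and 4 lower. Of the 8 tested leukocyte markers edgeR called 0 higher and 1 lower (Csf1r, edgeR adjusted p = 0.0238), as with the block. Of the 5 tested endothelial and 4 tested podocyte markers 0 passed edgeR's test. DESeq2 called 2 lower in each of these lists, limma-voom called 0, and with the block 2 and 4 were lower. Of the 3 tested skeletal and cardiac muscle markers edgeR called 0, and 1 was higher with the block and with limma-voom. The 8 skeletal and cardiac muscle markers summed to 2.02 to 2.92 CPM, with Ckm, Myod1, Myog and Myf5 at 3 counts or fewer in every library. Endothelial markers summed to 41.1 to 58.3 CPM in CTL and 25.2 to 37.1 in TGF-β1, leukocyte markers to 10.7 to 25.7 and 8.44 to 23.2, and podocyte markers, which include Synpo, to 466 to 719 and 361 to 415.

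Other genes of the pathway were counted from 3 lists in the same fit. With the replicate block the lists, in the order given here, had 14, 5 and 4 higher and 8, 4 and 1 lower genes, where 15.1% and 19.1% of all genes tested were called. Of 36 other focal adhesion genes 4 rose (11.1%) and 2 fell (5.56%), against 5% and 6.69% of all genes tested. Pdlim4, a relative of Pdlim7, had 444, 402 and 506 normalized counts in CTL and 1422, 985 and 1453 in TGF-β1 (log2 fold change 1.51, edgeR adjusted p = 0.00745). Nexn, the actin-binding nexilin, rose by 1.01 on the log2 scale and Tes, the LIM protein testin, by 0.49 (edgeR adjusted p = 0.0408 and 0.0171). Sorbs2, an adaptor of the vinexin family, fell by 1.12 on the log2 scale, from 7336 to 8652 normalized counts in CTL to 2584 to 4544 in TGF-β1 (edgeR adjusted p = 0.0247).
Of 15 other myosin II and thin filament genes 1 rose (6.67%, near the share of all genes), Tnnt2, the cardiac troponin T (log2 fold change 1.11, edgeR adjusted p = 0.0371), at 93.2 to 127 normalized counts in CTL and 173 to 313 in TGF-β1. Of 10 immediate SRF-linked genes edgeR called 0 higher, 2 were higher at an unadjusted p-value under 0.05, DESeq2 called 1 higher and limma-voom 0. Fos fell, from 447, 537 and 496 in CTL to 239, 239 and 227 in TGF-β1 (log2 fold change −1.07, edgeR adjusted p = 0.00379).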

How the data were processed

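RNA was isolated with Trizol from 3 CTL and 3 TGF-β1 RTEC cultures. The authors enriched poly(A) RNA, prepared TruSeq libraries, sequenced single 50-bp reads, and, per the labels and the submitters' processing notes, used Trim Galore, STAR 2.4.1d, GRCm38 and HTSeq 0.6.1. The deposited values are whole read counts per gene with no normalization. Reads on several genes (1.88 to 1.97% of reads per library) or with several alignments (18.7 to 19.4%) were already left out, so near-identical actin copies and overlapping genes may be undercounted, and the strand setting of the counting is not given in the sources used here. 5 tally rows that name no gene were left out.

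Symbols, positions and union exon lengths came from GENCODE M21 (GRCm38), which matched 46005 of 46517 identifiers and all 44 genes. Tests were run with edgeR 4.0.16 in R 4.3.3 (filterByExpr by group, TMM, glmQLFit with robust estimation, glmQLFTest, Benjamini-Hochberg over 15862 genes, threshold 0.05). Standard errors were derived from the F statistic. Single values used two-sided exact permutation tests, and pair ratios a pseudocount of 0.5 normalized counts. All 44 genes are named, and from each pathway list up to 4 genes past the threshold with the largest change, plus Mrtfa, Mrtfb and Myocd. The result of 1 further pathway list is not reported here. The members and lists were chosen with earlier results of these data known.

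Same-numbered CTL and TGF-β1 cultures deviated together from their group means, with correlations of 0.34, 0.684 and 0.572 over 15862 genes, against −0.617 to 0.215 for other pairs. The numbers come from the labels, and the study's methods state no pairing, so the fit without the block is the main one. No 2 libraries matched within sampling noise (chi-square per degree of freedom of at least 9.02). Alternatives were DESeq2 1.42.0, limma-voom (limma 3.58.1), the replicate block, RLE scaling or scaling by library size only, filters of 1 count in all or 10 counts in each sample, a threshold of 0.01, and leaving out cultures. The scripts were tested on simulated counts, and figures were drawn with matplotlib 3.10.9.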

Additional observations from a re-analysis of the deposited data

How the results depend on the processing

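Of 43 genes, 12 were higher and 3 lower. The counts changed by over 1.5 times with DESeq2 (20 higher, 5 lower), the replicate block (29 and 5), an adjusted p-value under 0.01 (3 and 1), without both replicate 1 cultures (0 and 0) and, for the higher genes, without both replicate 3 cultures (3). Leaving out 1 culture at a time gave 1 to 12 higher and 1 to 4 lower genes, with 1 higher gene without CTL replicate 1 or TGF-β1 replicate 1, 7 without CTL replicate 3, and 1 lower gene without CTL replicate 1. The replicate block added calls for 19 genes and changed no other call. The block left the 4 library ratios at 0.12, −1.06, 0.15 and 0.78 as means of paired differences. Without 1 culture the differences ranged from −0.06 to 0.34 for muscle against cytoplasmic actin, from −1.25 to −0.83 for Myh10 against Myh9, from 0.07 to 0.22 for the tropomyosins and from 0.58 to 0.98 percentage points for the share of counts. Signs turned in Actg2 (−0.16 without TGF-β1 replicate 2, leave-one-out range to 0.40), Parva (0.04 without CTL replicate 2, range from −0.11), Fhl1 (range from −0.07, 0.00 without CTL replicate 1 or 2, 0.04 without TGF-β1 replicate 3, 0.01 without both replicate 2 and 0.02 without both replicate 3 cultures) and Smtn (−0.02 with library size only, −0.01 without TGF-β1 replicate 2, −0.02 without both replicate 2 cultures), and in the muscle actin ratio (−0.06 without CTL replicate 3, −0.01 without TGF-β1 replicate 2). The cause was not tested. With library size only the median log2 fold change of all genes was −0.077, against −0.003 in the reported fit, and the other fits kept it within 0.012 of 0. Myh11 and Myocd had under 100 normalized counts, where depth limits the precision.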
